A study of Homo sapiens with 6 samples.

Results

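The regions described here are ATAC-seq peaks of Nthy-ORI thyroid cells that were listed after both 6 h and 24 h of T3 (triiodothyronine, the active thyroid hormone) and were not listed for vehicle. They were selected on the peak lists themselves. A 24 h peak on chromosomes 1 to 22 or X counted as a member when it overlapped a 6 h peak by at least 50% of the shorter peak and overlapped no vehicle peak by that rule. This chose 4523 of the 60299 peaks in the 24 h list, or 7.5%, and the members covered 4.83 Mb. Of the other 24 h peaks, 53495 were in neither other list, 1473 were in all 3 lists and 808 were shared with vehicle but not with 6 h.

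Nthy-ORI is an immortalised line from normal human thyroid follicular epithelium. All cells were first starved of hormone for 24 h in medium without phenol red that held charcoal-stripped serum. They then received 10 nM T3 for 6 h, 10 nM T3 for 24 h, or the NaOH vehicle, whose samples are labelled 6 h. Each group had 2 samples, and nuclei of 50000 cells entered each Tn5 reaction. Whether a group's 2 samples were separate cultures is not said in the labels. A 24 h vehicle sample was not analysed here, so at 24 h an effect of T3 and one of elapsed time cannot be told apart. Only 1 list was deposited per group, of peaks that ranked alike in both samples, so no difference between lists has a replicate check. The depth of the samples is unknown, and the lists were of very unequal length, with 7103 peaks for vehicle, 12385 at 6 h and 60661 at 24 h. A peak missing from a list has no value there and is not shown to be closed. Intervals in brackets are 95% intervals (exact Clopper-Pearson for shares) and hold counting error alone, and no test between conditions was possible.

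Thyroid hormone receptors bind DNA with or without their ligand, at repeats of the hexamer AGGTCA, and T3 exchanges the corepressors bound to them for coactivators. SWI/SNF complexes use ATP to move or eject nucleosomes. ATAC-seq records where the Tn5 transposase can reach DNA, chiefly promoters and enhancers, and the promoters of broadly expressed genes are held open by factors such as NF-Y, which binds the CCAAT box, and by ETS-family factors, NRF1, CREB, YY1 and ZNF143.

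The stretches before 8 gene starts that overlapped a member are shown as examples of promoters with and without the motifs searched for, and because they include strong members, the hormone response gene HIF1A and the thyroid factor PAX8. They were picked after their motifs were seen. Sequences are from RefSeq on GRCh38.p14, 250 bases ending just before the start, written 5′ to 3′ on the gene's strand. Capitals mark matches to CCAAT, CCGGAAGT (ETS), CGCATGCG (NRF1), TGACGTCA (the cyclic AMP response element, CRE), AAGATGGCG (YY1) and ACTACAA (ZNF143) on either strand, and no YY1 match occurred in these 8. MTR lies on the plus strand at chr1:236795031-236795280, BPGM on plus at chr7:134646603-134646852 and NUP42 on plus at chr7:23181798-23182047. RALGAPA2 lies on the minus strand at chr20:20712645-20712894, HEMK2 on minus at chr21:28885368-28885617 and UTP3 on plus at chr4:70688282-70688531. HIF1A lies on plus at chr14:61695263-61695512 and PAX8 on minus at chr2:113278922-113279171.
MTR: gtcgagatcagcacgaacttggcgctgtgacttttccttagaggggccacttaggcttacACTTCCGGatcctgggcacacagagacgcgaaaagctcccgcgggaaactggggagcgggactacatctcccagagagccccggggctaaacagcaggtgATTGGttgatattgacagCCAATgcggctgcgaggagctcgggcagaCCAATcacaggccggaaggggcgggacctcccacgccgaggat
BPGM: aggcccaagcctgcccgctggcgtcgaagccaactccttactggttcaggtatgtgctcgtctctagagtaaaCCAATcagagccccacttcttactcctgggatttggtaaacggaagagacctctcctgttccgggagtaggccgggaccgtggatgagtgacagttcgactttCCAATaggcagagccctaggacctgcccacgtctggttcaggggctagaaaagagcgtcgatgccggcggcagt
NUP42: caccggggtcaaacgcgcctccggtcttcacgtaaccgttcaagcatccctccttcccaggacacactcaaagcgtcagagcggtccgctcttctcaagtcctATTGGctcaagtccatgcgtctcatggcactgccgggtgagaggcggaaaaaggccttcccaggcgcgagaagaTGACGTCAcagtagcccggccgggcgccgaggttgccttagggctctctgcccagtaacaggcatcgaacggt
RALGAPA2: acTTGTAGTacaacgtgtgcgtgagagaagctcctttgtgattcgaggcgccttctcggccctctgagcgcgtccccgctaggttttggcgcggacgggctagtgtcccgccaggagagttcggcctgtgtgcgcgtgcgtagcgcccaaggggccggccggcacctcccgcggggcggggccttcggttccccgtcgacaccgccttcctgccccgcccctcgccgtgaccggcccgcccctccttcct
HEMK2: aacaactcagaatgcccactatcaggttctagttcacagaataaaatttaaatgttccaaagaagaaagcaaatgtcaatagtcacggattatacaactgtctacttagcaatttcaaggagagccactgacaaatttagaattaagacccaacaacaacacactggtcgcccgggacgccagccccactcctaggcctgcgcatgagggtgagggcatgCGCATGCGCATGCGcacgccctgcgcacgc
UTP3: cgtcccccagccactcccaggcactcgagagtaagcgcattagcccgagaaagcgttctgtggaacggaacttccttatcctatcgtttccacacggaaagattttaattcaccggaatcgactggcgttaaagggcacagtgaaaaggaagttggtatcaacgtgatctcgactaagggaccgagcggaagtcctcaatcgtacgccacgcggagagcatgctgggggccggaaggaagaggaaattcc
HIF1A: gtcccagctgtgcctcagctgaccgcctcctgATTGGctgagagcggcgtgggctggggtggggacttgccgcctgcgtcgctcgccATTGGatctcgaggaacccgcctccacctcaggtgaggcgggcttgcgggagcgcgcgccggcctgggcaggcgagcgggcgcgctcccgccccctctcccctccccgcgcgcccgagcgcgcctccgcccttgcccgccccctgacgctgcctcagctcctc
PAX8: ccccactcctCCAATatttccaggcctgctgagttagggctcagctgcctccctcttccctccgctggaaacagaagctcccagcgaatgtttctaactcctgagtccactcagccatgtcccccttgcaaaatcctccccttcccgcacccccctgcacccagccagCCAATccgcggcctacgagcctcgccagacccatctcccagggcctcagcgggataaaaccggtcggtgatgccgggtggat
The MTR stretch held 3 CCAAT boxes and 1 ETS match, and both the 24 h and the 6 h summit lay inside it. The BPGM stretch held 2 CCAAT boxes and also both summits. NUP42 had a CCAAT box and a CRE, RALGAPA2 a single ZNF143 match and HEMK2 a pair of overlapping NRF1 matches. The HEMK2 summit itself lay 111 bp downstream of the start, outside the stretch, which the peak overlapped by 161 bp. The UTP3 stretch, which a strong member covered whole, held none of the 6 motifs. HIF1A and PAX8 each held 2 CCAAT boxes.

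Members were among the stronger peaks of the 24 h list and in the middle of the 6 h list. Their median 24 h signal, which is the sum of both replicates' signal, was 19.6 (interval of the median 19.2 to 20.1), against 12.2 for all other 24 h peaks. In the separate replicate columns, whose order carries no sample name, the members' medians were 9 and 10.5, and those of the other 24 h peaks were 5.91 and 6.42. The members' median percentile in the 24 h list was 79.7 (78.7 to 80.8), against 48.2 for the other peaks. The 10% of strongest 24 h peaks held 1462 members, which is 32.3% of the members (31 to 33.7), against 8.16% of the other 24 h peaks. The members were also wider, with a median of 1008 bp against 670 bp, and their replicate summits lay slightly farther apart, with medians of 54 and 45 bp and 65.1% against 71% within 100 bp. The share with an irreproducible discovery rate (IDR) of at most 0.01 was 84% among members and 69.5% among the rest. Peaks in all 3 lists had a median width of 990 bp, 65% with replicate summits within 100 bp and 80.7% with such an IDR. Those shared by vehicle and 24 h alone had 978 bp, 51.6% and 58%. Greater width was thus not particular to members. Across members, the replicate signals at 24 h had a Spearman rho of 0.848, against 0.663 across the other 24 h peaks, which share the same libraries. The summed signal had quartiles of 12 and 26.9 in members and of 9.67 and 17.3 in the other 24 h peaks. How this range bears on the rho was not tested.

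The share of 24 h peaks that were members rose with 24 h signal, and most steeply at gene starts. A peak was placed at a gene start when the mean of its replicate summits lay within 1 kb of a RefSeq start of a protein-coding gene. In the weakest of 10 equal signal classes, 1.73% of gene-start peaks and 3.52% of peaks elsewhere were members. In the strongest class these shares were 33.7% (31.7 to 35.7) and 18.7% (17.5 to 20).

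**Figure D1:**
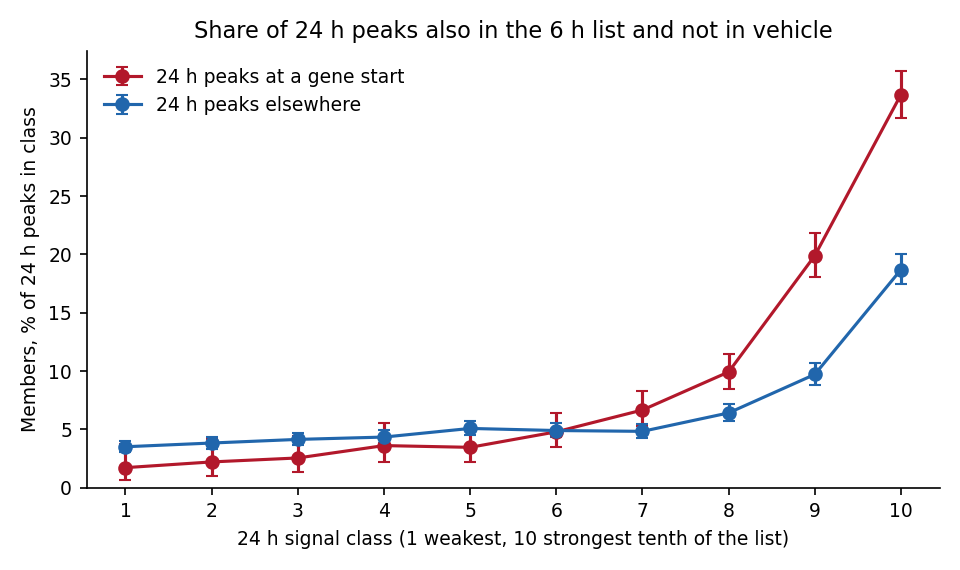
Share of 24 h peaks that were members (vertical axis, %) in 10 equal classes of 24 h signal (horizontal axis), for peaks at a gene start (red) and elsewhere (blue), with 95% intervals as bars. Both curves stay under 7% up to class 7, and in class 10 reach 33.7% at gene starts and 18.7% elsewhere.

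The 6 h partners did not stand out within their own list. The 4523 members matched 4474 different 6 h peaks, since 49 of these lay on 2 members each. Partners had a median 6 h signal of 10 and a median percentile of 46.9, against 10.2 and 51 for the other 7638 peaks of the 6 h list. Across members, 24 h and 6 h signals had a Spearman rho of -0.0696 and a Pearson r of -0.0693, a description over 4523 regions from the same libraries. Of the 1462 members in the top 10% at 24 h, 818 were in the lower 50% at 6 h and 76 in the top 10%. Over all members the 6 h percentile had a median of 47.1 and quartiles of 23.5 and 72. Lower 6 h ranks were thus not particular to the members that were strong at 24 h. The replicate signals of the 6 h partners had a rho of -0.472. Their sum had a lowest value of 8.38 and quartiles of 9.3 and 11.2. How this narrow range of the sum bears on the rho was not tested.

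**Figure D2:**
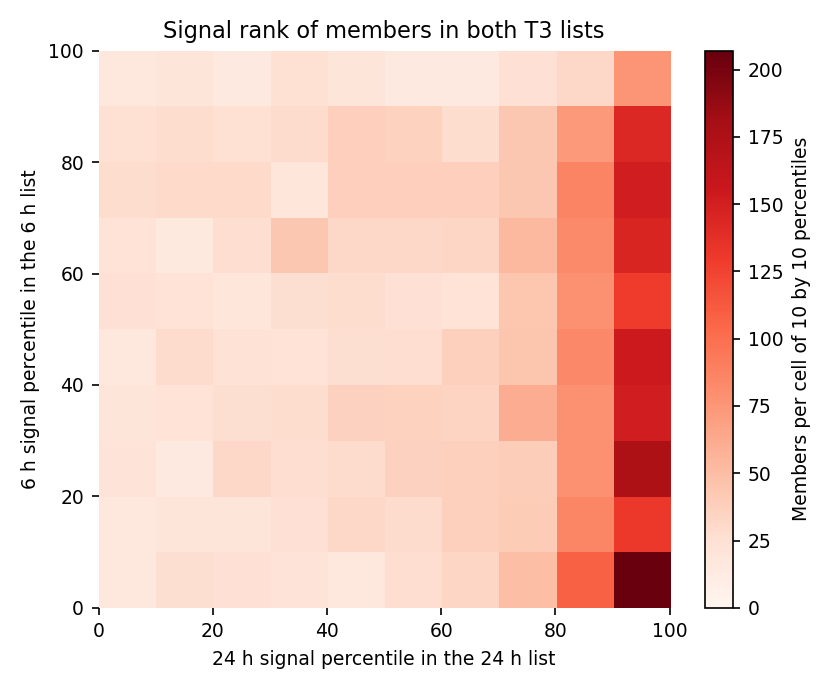
Number of members (colour) by their signal percentile in the 24 h list (horizontal axis) and their partner's percentile in the 6 h list (vertical axis), in cells of 10 by 10 percentiles. Members crowd on the right, in the top 10% at 24 h, and spread over the whole 6 h range, with 76 in the upper right cell.

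Summits were less sharply placed at 6 h than at 24 h. Against the 54 bp between the replicate summits of a member at 24 h, those of its 6 h partner lay a median of 209 bp apart. The other 6 h peaks had a like distance of 231 bp. The 24 h and 6 h summits of a member lay a median of 149 bp apart (143 to 155), and 37.9% of members had them within 100 bp. This distance was shorter for stronger 24 h peaks. Away from gene starts it fell from 222 bp for the 1157 members in the lower 50% of the 24 h list to 52 bp for the 103 members in its top 1%. At gene starts the medians were 237 bp over 70 members and 73.5 bp over 102 members. The strongest members away from gene starts were also the narrowest, with a median width of 624 bp against 866 bp at gene starts.

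Gene starts held a larger share of the members than of the 5 other sets of peaks they were set beside. Of the 4523 members, 1481 lay at a protein-coding gene start, or 32.7% (31.4 to 34.1). The share was 16% of peaks found at 24 h alone, 11.1% of those shared by vehicle and 24 h, 4.68% of peaks in all 3 lists and 2.70% of the whole vehicle list. Of the 6186 peaks of the 6 h list absent at 24 h it was 1.15% (71 peaks). A further 25.2% of members were intergenic within 100 kb of a gene, and 24.9% lay in gene bodies, against 37.7% of peaks found at 24 h alone. Read the other way, 14.5% of the 10202 gene-start peaks at 24 h were members, and 6.07% of the 50097 peaks elsewhere. Members away from protein-coding starts lay at a lncRNA start in 5% of cases (152 of 3042), against 3.01% of peaks found at 24 h alone.

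**Figure D3:**
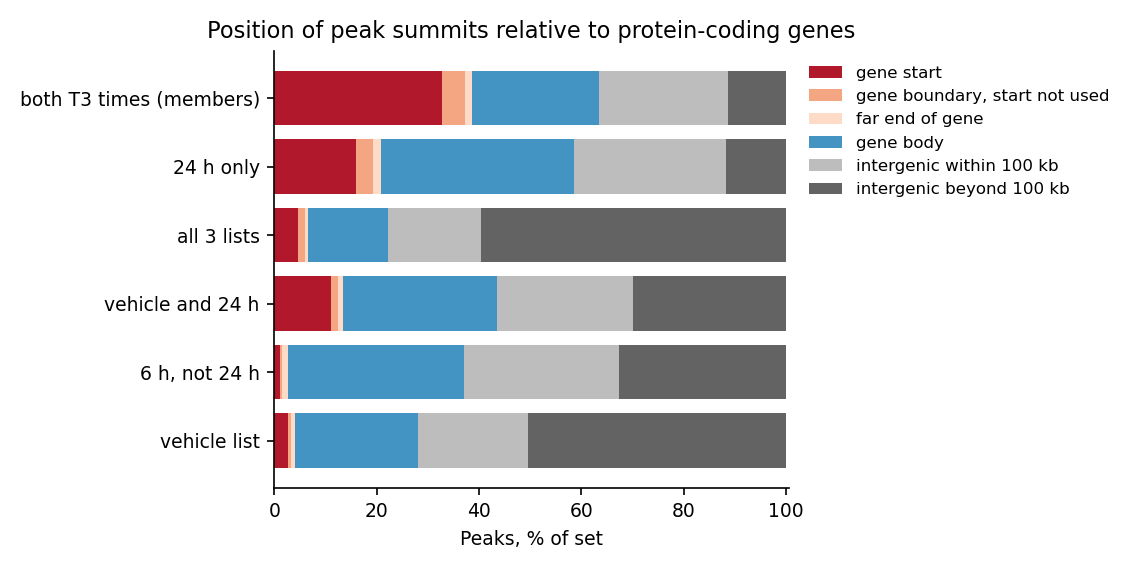
Share of peaks (horizontal axis, %) in 6 classes of position relative to protein-coding genes, for the members and 5 other sets of peaks. The gene-start class takes 32.7% of the members and 16% of peaks found at 24 h alone, and at most 11.1% of the other 4 sets.

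At these starts the 24 h summits of members lay a median of 67 bp upstream (offset -67), and 80.8% (78.7 to 82.7) were within 250 bp of the start. For peaks found at 24 h alone the offset was -42 bp and the share 73.5%. The 6 h summits of the same members had an offset of -50 bp, with 61.9% within 250 bp. Members at gene starts were stronger at 24 h than members elsewhere, with medians of 25 and 15.3. Their 6 h percentiles were close, at 49.2 and 46.

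The 1481 gene-start members served 1752 of the 15812 protein-coding genes whose start was used here, or 11.1%, with no start used on chromosome 8. A 24 h peak of any kind lay at the start of 10260 of them, and a 6 h peak at the start of 1892. Of the genes with a 6 h peak, 1729 (91.4%) had a member. The much longer 24 h list had a peak at 64.9% of all starts. Over all positions, 4474 of the 12112 peaks of the 6 h list on these chromosomes were partners of a member. Vehicle peaks lay at only 206 starts, 7 of them with a member as well.

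The strongest gene-start members at 24 h lay at genes of varied function. RALGAPA2, which helps switch off Ral GTPases, led these with 20.8 and 27.3 in the 24 h replicates and 5.31 and 4.97 at 6 h. The member shared by DNAJB9, a co-chaperone of the endoplasmic reticulum, and its head-to-head neighbour THAP5 had 23.7 and 22.2 at 24 h and 7.19 and 7.68 at 6 h. HEMK2, a methyltransferase, had 21.6 and 24.1 at 24 h and 3.79 and 5.04 at 6 h. These 3 members were alike at 24 h, all in the top 1% of the list, while their 6 h percentiles were 53, 93.9 and 7.53.

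PRPS1, which makes the ribose donor of nucleotide synthesis, had 22.2 and 22.8 at 24 h and 4.73 and 6.49 at 6 h. BPGM, bisphosphoglycerate mutase, had 19.1 and 25.1 at 24 h and 4.91 and 3.83 at 6 h. UTP3, a component of the machinery that processes small-subunit ribosomal RNA, had 22.7 and 21.4 at 24 h and 6.18 and 4.13 at 6 h. The next were ZNF337, the pair MRPL50 and ZNF189, SAMTOR, FAM185A, NUP42 and RIMOC1, with summed 24 h signals from 43.7 down to 42.9 and 6 h percentiles from 26.7 (MRPL50 and ZNF189) to 92.7 (ZNF337). NUP42 encodes a nuclear pore protein and SAMTOR the S-adenosylmethionine sensor of the mTORC1 pathway.

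Ranking by the 6 h partner gave other genes. MTR, methionine synthase, had the highest 6 h signal at a gene start, with 5.57 and 12.4 at 6 h and 15 and 19.7 at 24 h. It was also the member with the highest lower rank of the 2 lists, at percentiles 98.6 and 96.7, and its summits were 27 bp apart. HSPA4, an Hsp110-family chaperone, had 5.08 and 11.3 at 6 h and 10.9 and 13 at 24 h, with summits 8 bp apart. GABPB1, a subunit of the ETS-family GA-binding protein, had 3.69 and 12.9 at 6 h and 11.9 and 10.8 at 24 h. SPHKAP, the pair ANKMY2 and BZW2, SUCO, TAF11L3 and METTL2B completed the 8 highest, with 6 h signals of 16 to 16.9. In all 8 the replicate in the second column was the higher, by between 1.79 in SPHKAP and 9.26 in GABPB1. TAF11L3 and METTL2B have near-identical copies elsewhere, and the treatment of reads with several matches is not given in the sources used here.

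Further members high in both lists lay at the pair LMBRD2 and SKP2, at B3GALNT2, at ZNF131, at the pair TCEANC2 and TMEM59, at COP1, at the pair EAF2 and IQCB1, and at DTWD2. Their 24 h percentiles were 94.9 to 99.2 and their 6 h percentiles 94 to 94.7. SKP2 encodes the F-box protein that marks the cell cycle inhibitor p27 for degradation, and COP1 is a ubiquitin ligase. At SKP2 the 24 h replicates were 15 and 22.1 and those at 6 h 5.15 and 10.3.

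Genes with a member at the start were more often head-to-head genes, which start on opposite strands within 1 kb and share a promoter region. Of the 1752 genes with a member at the start, 510 were head-to-head, or 29.1% (27 to 31.3). The share was 15.2% (14.5 to 16) of genes with another 24 h peak at the start and 2.54% of genes with none. Since members were stronger peaks, the share was also taken over the 3001 genes whose other 24 h peak was above the members' lower quartile, with a median signal of 25.2 against 25.3. There it was 19.6% (18.2 to 21.1), under that of the member genes. These are shares of genes, and 1 peak between a pair counts for both. Of the 1481 gene-start members, 18.8% lay at the starts of 2 or more genes, against 9.16% of gene-start peaks found at 24 h alone. HSPD1 and HSPE1, the mitochondrial chaperonin and its co-chaperonin, shared a single member with 18.5 and 19.3 at 24 h and 4.25 and 4.23 at 6 h. Its 24 h replicate summits lay 1009 bp apart.

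The 23 gene lists were drawn up with earlier results of these data known. Centrosome and cilium genes stood highest among them, with a member at 13 of 29 starts, or 44.8% (26.4 to 64.3), against 11.1% of all genes and 17.1% of genes with any 24 h peak. CEP290, a protein of the ciliary transition zone, had 18.5 and 21.8 at 24 h and 5.71 and 5.86 at 6 h. RPGRIP1L, another transition zone protein, had 15.1 and 23.4 at 24 h and 4.74 and 4.13 at 6 h. IFT57, a subunit of the intraflagellar transport machinery, had 15.6 and 21.4, and OFD1, a centriole protein, 15.9 and 19.4. All 29 centrosome and cilium starts had a 24 h peak, so the members were its subset with a 6 h peak as well and none in vehicle. The lowest of the 13 was CEP76, at a summed 24 h signal of 14.3. A vehicle peak lay at 5 of the 29 starts, more than in any other list.

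Heat shock and protein folding genes followed, with 11 of 28 (39.3%, 21.5 to 59.4). They included DNAJB9, HSPD1 and HSPE1, TCP1 at 22.8 and 12.9, and CCT8 at 15.3 and 18.6 in the 24 h replicates. TCP1, CCT8, CCT3 and CCT7 are subunits of the cytosolic chaperonin that folds actin and tubulin. HSP90AA1, the inducible Hsp90, was the weakest of the 11, with 6.58 and 8 at 24 h and 6.64 and 3.37 at 6 h.

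Ribosome biogenesis and translation factors had 8 of 24 (33.3%), led by UTP3, UTP6, NPM1 and UTP15, with summed 24 h signals of 44 to 27.3. Promoter-binding transcription factors had 8 of 26 (30.8%). Among these, ZNF143 had 15.7 and 19.2 at 24 h, ELK4 16 and 14.6, CREB1 12.4 and 15.7, and SP1 12 and 12.3. DNA replication genes had 8 of 27 (29.6%). MCM3, part of the replicative helicase, had 16.8 and 18.7 at 24 h and 7.67 and 3.44 at 6 h. RFC5 of the clamp loader, MCM10 and ORC5 followed with summed 24 h signals of 34.7, 34.7 and 30.7.

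Respiratory chain and mitochondrial biogenesis genes had 7 of 24 (29.2%), with CYCS, cytochrome c, at 18.8 and 23.2 and TFB2M, a mitochondrial transcription factor, at 17.9 and 21.1 in the 24 h replicates. NDUFB3 and UQCRQ, subunits of complexes I and III, had summed 24 h signals of 30.6 and 26.7. Cell cycle genes had 7 of 25 (28%), with CDK1 at 16.3 and 23.3, SKP2 at 15 and 22.1, CDC25C at 14.8 and 16 and CDC25A at 11.5 and 16.9. DNA repair genes had 6 of 23 (26.1%), led by XRCC4 of the end-joining pathway at 16.7 and 24.9, ERCC4 at 16.8 and 22.8, and PMS2 and LIG4 at summed signals of 31.3 and 28.5. RNA splicing genes had 6 of 25 (24%), among them HNRNPC, SNRPB, SF3A3 and SNRPG with summed 24 h signals of 36.3 to 26.4. Vesicle transport genes had 6 of 28 (21.4%), with RAB18, SEC23B, VPS29 and COPA from 36.3 to 24.5. The intervals of the DNA repair (10.2 to 48.4), splicing and vesicle genes included the 11.1% of all genes. Nearly every start of the lists named so far had a 24 h peak, and the share of members among all genes with such a peak was 17.1%. Of these lists, the intervals of the centrosome and cilium and of the heat shock genes lay above that value, and those of the others included it. The 17.1% is not matched for 24 h signal. In the strongest of the 10 signal classes, 33.7% of gene-start peaks were members, a share of peaks that lies inside both intervals. HSPD1 and HSPE1, both counted among the heat shock genes, share a single member. How signal bears on the shares of the lists was not tested.

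The intervals of the remaining lists all included 11.1%. Mesenchymal and matrix genes had 4 of 18, or 22.2% (ACTA2, LOX, ZEB1 and COL4A1). AP-1 and immediate early genes had 3 of 17, or 17.6% (DUSP6, SPRY4 and EGR1), and the mitochondrial ribosome 4 of 25, or 16% (MRPL50, MRPS9, MRPL37 and MRPS7). General transcription machinery had 4 of 27, or 14.8% (MED7, TAF9, TAF5 and TAF7), as did AKT and ERK signalling (MTOR, PIK3R1, TSC2 and RPTOR). Chromatin remodellers outside SWI/SNF had 4 of 32, or 12.5% (SMARCA5, BAZ1B, CHD1 and RUVBL1), and ubiquitin and proteasome genes 3 of 29, or 10.3% (USP1, UBE2D3 and PSMD11). Epithelial junction and keratin genes had 1 of 15, or 6.67%, which was JUP. None of 17 genes specific to other organs had a member (0%, up to 19.5%).

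**Figure D4:**
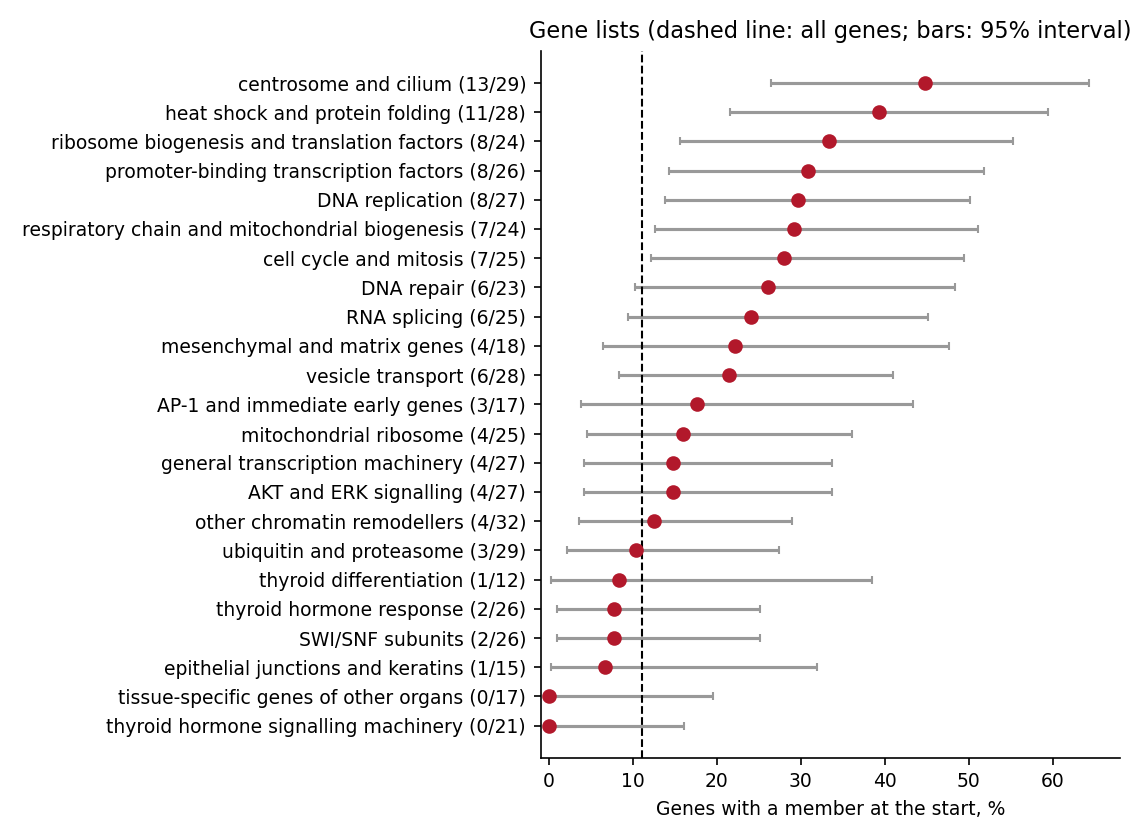
Share of genes with a member at the start (horizontal axis, %) in 23 gene lists, with the count in brackets, 95% intervals as bars and the 11.1% of all genes as a dashed line. Centrosome and cilium genes stand highest with 13 of 29. Hormone signalling genes (0 of 21) and genes specific to other organs (0 of 17) are tied as lowest.

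The hormone signalling machinery, that is receptors, transporters, deiodinases and coregulators, had a member at 0 of 21 starts (0%, up to 16.1%, against 11.1% of all genes), and 12 of them had a 24 h peak. THRB, which encodes the receptor TRβ, had a 24 h peak at its start, 7 nearest 24 h peaks in all and no member. KLF9, a direct target of the receptor, had a 24 h peak at its start that was no member either. Hormone response genes had a member at 2 of 26 starts, HIF1A and ACACA (7.69%, 0.946 to 25.1), so the intervals of both lists included the share of all genes. HIF1A, the oxygen-regulated transcription factor, had 11.6 and 14.5 at 24 h and 5.34 and 6.74 at 6 h. ACACA, acetyl-CoA carboxylase, had 10.1 and 10.3 at 24 h and 4.02 and 7.34 at 6 h, with its summits 900 bp apart.

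Thyroid differentiation genes had 1 of 12. PAX8, the lineage transcription factor of follicular cells, had 5.59 and 7.13 at 24 h and 6.4 and 4.53 at 6 h, with summits 914 bp apart, so it was a middling peak in both lists. A second PAX8 member lay 44789 bp upstream of the start, with 7.09 and 6.06 at 24 h. Of the other follicular markers checked, NKX2-1, FOXE1, HHEX and TSHR had a 24 h peak at the start and no member, and SLC5A5 and DUOX2 had neither. In the same check, mesenchymal VIM, CDH2, FN1 and ZEB1 all had a 24 h start peak, and that of ZEB1 was a member. Epithelial KRT8, immune CD14 and endothelial KDR had a 24 h start peak that was no member, while epithelial CLDN4 and immune PTPRC had none. The part of other cell types in the results was not tested.

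SWI/SNF subunit genes had 2 of 26 starts with a member, SS18 and SMARCE1. SS18, a subunit of the BAF complex, had 10.5 and 11.2 at 24 h and 4.33 and 5.31 at 6 h. SMARCE1, which encodes the BAF57 subunit, had 7.96 and 6.26 at 24 h and 3.79 and 5.31 at 6 h, with its summit 515 bp upstream of the start. The ATPase gene SMARCA4 and ARID1A had a 24 h peak at the start and no member. A pair of members lay within 1 kb of a boundary of ACTL6A, the BAF53A subunit gene, and both matched the same 6 h peak. The stronger had 14.3 and 19.1 at 24 h and the 6 h peak 4.49 and 7.24.

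DUSP6 and EGR1 are early targets of ERK signalling. DUSP6 had 9.64 and 11.6 at 24 h and 5.15 and 5.81 at 6 h, and EGR1 had 6.75 and 7.52 at 24 h and 3.86 and 5.32 at 6 h. The 24 h replicate summits of EGR1 lay 814 bp apart, and those of DUSP6 coincided. EGFR had 28 nearest 24 h peaks, of which 4 were members, none at its start. The strongest EGFR member, 51465 bp upstream at chr7:54967337-54967972, had 17.9 and 21.7 at 24 h, 7.22 and 3.73 at 6 h, and summits 12 bp apart. GLI3 had 2 members of 14 nearest 24 h peaks, with summed 24 h signals of 16.3 and 22.1 and summits 13 and 21 bp apart. Of all 24 h peaks 7.5% were members, and of those away from gene starts 6.07%. Whether EGFR or GLI3 differs from these shares was not tested.

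Promoters with a member differed in sequence from other promoters in the way that strong 24 h promoters did. For each of the 15812 genes 1 window was searched, from 250 bases before to 50 after the start. CCAAT occurred in 44.8% of windows with a member (42.5 to 47.2), in 36% with another 24 h peak, in 34.4% with no 24 h peak and in 36.4% of all windows. The ETS string CCGGAAGT was found in 11.6%, 8.82%, 1.19% and 6.44% of these sets in the same order. NRF1, CGCATGCG, gave 5.48%, 3.93%, 0.684% and 2.96%, and ZNF143, ACTACAA, 4.97%, 3.57%, 1.82% and 3.11%. YY1, AAGATGGCG, gave 4.91%, 4.04%, 0.468% and 2.88%. In the 3001 windows whose other 24 h peak was above the members' lower quartile of signal, the CCAAT share was 45.7% (43.9 to 47.5) and the ETS share 12.2% (11 to 13.4). The members' shares of CCAAT, ETS, NRF1, YY1 and ZNF143 thus lay within the intervals of other peaks of like strength. The GC box GGGCGG was less frequent than at like strength, with 68.6% (66.4 to 70.8) of member windows against 74.3% (72.7 to 75.9) of those 3001. It was in 73.9% of windows with another 24 h peak, 36.6% with no 24 h peak and 60.2% of all windows. Median GC content was 63.7% in member windows and 64.7% in the 3001.

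Several other motifs were no more frequent in member promoters than in all promoters. TGANTCA of AP-1 occurred in 3.94% of member windows and 5.81% of all windows, the TATA box TATAAA in 3.65% and 9.23%, the TEAD string GGAATG in 10.4% and 11.6%, and the RUNX string TGTGGT in 10.2% and 10.7%. The E-box CACGTG was slightly higher in member windows, at 9.70% (8.36 to 11.2) against 8.89%, which lies inside that interval. The CRE was more frequent, with 3.77% (2.93 to 4.77) against 2.64% (2.4 to 2.91) of all windows and 3.93% of the 3001. A single receptor hexamer AGGTCA was present in 10.1% (8.73 to 11.6) of member windows and 11.4% of all. It was in 8.93% (7.93 to 10) of the 3001 and in 15.6% of windows with no 24 h peak. RUNX had 8.76% (7.78 to 9.83) in the 3001 and 14.3% with no 24 h peak. For both strings the members' share lay just above the interval of the 3001, with overlapping intervals. In the 3001, AP-1 had 4.07%, TATA 3.9%, TEAD 9.96% and the E-box 10.9%. The direct repeat of AGGTCA spaced by 4 bases was found in 0 of 1752 member windows, which allows a share of up to 0.21%, and in 1 of all 15812. No match says only that these letters were not in these windows.

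Where a CCAAT box was present the 24 h peak was stronger and the 6 h peak was not. The 785 member genes with CCAAT had a median summed 24 h signal of 27 against 23.5 for the 967 without, while the 6 h medians were 10.2 and 10.1. A higher 24 h median was not particular to CCAAT. It was 27.8 with ZNF143, 27.5 with the CRE, 26.5 with ETS and 26.4 with RUNX, each against 25.1 without. With NRF1, AP-1, TATA and AGGTCA it was lower than without (24.5, 23.4, 22.9 and 24.8). Median 6 h percentiles were 56.1 with ETS and 59.1 with RUNX, each against 49 without. Matches to CCAAT lay a median of 95 bp upstream of the start (position -95), those to ZNF143 at -104 and those to ETS at -43. YY1 matches were placed otherwise, with a median at +15, where 29.9% of them lay upstream.

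**Figure D5:**
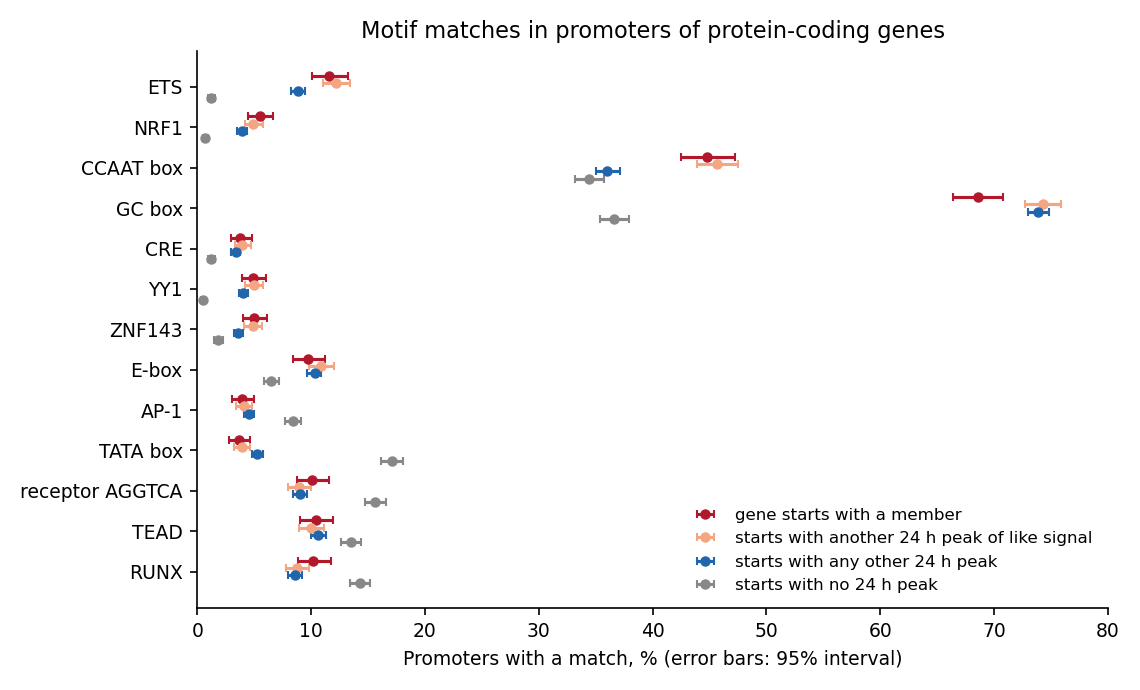
Share of promoter windows with a match (horizontal axis, %) for 13 motifs, in gene starts with a member (red), with another 24 h peak of like signal (orange), with any other 24 h peak (blue) and with no 24 h peak (grey), with 95% intervals as bars. For CCAAT and ETS the red points (44.8% and 11.6%) lie beside the orange ones (45.7% and 12.2%) and right of the blue ones, and for the GC box red (68.6%) lies left of orange (74.3%).

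Away from gene starts and ends, the 6 strongest members were narrow peaks whose 24 h and 6 h summits lay at most 99 bp apart. The strongest of all lay within TMPRSS15, the gene of the intestinal protease enteropeptidase, at chr21:18383086-18383527, with 27.4 and 32.6 at 24 h and 5.21 and 4.72 at 6 h. It was 442 bp wide, and its 24 h and 6 h summits lay 5 bp apart. Peaks within ADAMTS6 and SMYD3 and 13888 bp from HGF had summed 24 h signals of 49.9, 49.2 and 47.1 and summits 4 bp apart in each case. Those within CTNNA2 and nearest to ETNK1 had 45.2 and 45, with summits 99 and 54 bp apart. All 6 were in the top 1% of the 24 h list, with 6 h percentiles from 9.60 to 80.2. None of these positions says that the nearest gene is the one affected.

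The 4 members ranked highest by 6 h signal away from gene starts and ends were wide at 6 h and lay in the lower 50% of the 24 h list. The 6 h partner within TTC34 was 8019 bp wide, with 10.7 and 18.9 at 6 h, while the member had 4.17 and 3.87 at 24 h. Those within SLC5A4, within ANXA8 near NPY4R2, and near CIROZ had summed 6 h signals of 22, 20.7 and 20.1 over 2314 to 2804 bp, and summed 24 h signals of 10.1, 8.86 and 10.1. NPY4R2 and ANXA8 belong to duplicated stretches with near-identical copies, as do GGTLC2 and PTPN20, so placement of reads there is uncertain.

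Of 3339 genes with a member nearest to a boundary within 100 kb, 2925 had a single one. DDAH1 and TTC34 had 5 each, of 14 and 19 nearest 24 h peaks. CYRIB, EGFR, GGTLC2, LOC107987020, PTPN20, RASEF, SEPTIN9 and TOP1 had 4 each. Their nearest 24 h peaks numbered 9, 28, 5, 8, 12, 12, 17 and 6 in the same order. Of all 24 h peaks 7.5% were members, and these genes were picked for their high counts. TTC34 also had 9 nearest vehicle peaks, while DDAH1, RASEF and SEPTIN9 had none. At DDAH1, CYRIB and RASEF a pair of the members matched the same 6 h peak. The median distance from a member to the nearest other member was 130194 bp, and 5.42% had another within 10 kb. The longest runs of members with summits within 10 kb of the next held 3, and there were 5 of them, at ANKRD1, at APEX1 with PIP4P1 and PNP, at NEMF, at PPP3CA and at DDAH1. The run at DDAH1 included its pair on the same 6 h peak. At ANKRD1, a target gene of YAP, the 3 members had summed 24 h signals of 35, 9.85 and 25.1.

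The chromosomes differed in how many of their 24 h gene-start peaks were members. On chromosome 5 the share was 27.9% (24.2 to 31.8, 156 of 559), followed by 19.9% on chromosome 7 and 18.5% on chromosome 10, against 14.5% on all. The shares on chromosomes 19 and 11 were 7.44% and 8.97%, and on X it was 3.17% (1.65 to 5.47, 12 of 379). On chromosome 5 the share was raised along its length: each stretch of 20 Mb between 40 and 180 Mb that held at least 40 gene-start peaks had 22.8% to 40.9%, against a median of 15.4% over 115 such stretches of the genome. ZNF131, DTWD2, XRCC4, MED7 and HSPA4 are among the member genes there. In the 6 h list chromosome 5 held 8.28% of all peaks and in the 24 h list 6.42%. Median 24 h signal at its start peaks was 20, against 15.9 to 19.4 on the other chromosomes. How these levels bear on the share was not tested.

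The overlap limits themselves touched few peaks. The 6 h peak and the member covered the shorter of the pair completely in 2162 members (47.8%), and 46 members had an overlap of 50 to 60%. Just inside the limit were peaks nearest to RYK (50%), OLFM4 (50.2%) and PANK3 (50.3%), and just outside those nearest to GMDS (49.8%), NCR2 (49.2%) and PIK3CA (49%). At the vehicle limit, the member nearest to RNF182 overlapped a vehicle peak by 49.2%, while a peak at MTERF2 with 51.5% was counted in all 3 lists. Only 15 members touched a vehicle peak at all, and 16 of the 6 h partners overlapped a vehicle peak by the rule.

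The count of members depended on the length of the lists, while the larger gene-start share among members than among other 24 h peaks held in lists of equal length. With each list limited to its 7103 strongest peaks by summed signal, 851 members were left, 52.8% of them at a gene start, against 34.6% of the other 24 h peaks in that shortened list. Of the 24 h gene-start peaks, 17.3% (15.9 to 18.8) were then members, and 9.02% (8.20 to 9.90) of those elsewhere.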

How the data were processed

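ATAC-seq of 6 samples in 3 groups gave 3 deposited peak lists, which the authors made from both samples of a group. Tools named in the submitters' processing notes are MACS2, Bowtie2, DiffBind, Trim Galore and CASAVA 1.7, with hg38 as the build. How the Tn5 offset, duplicates, repeats and blacklisted regions were treated is not given in the sources used here. Both the deposited signal of each replicate and the sum have no stated normalization. Levels in different lists are therefore set side by side only as percentiles. These are ranks within lists of very unequal length, so a difference in percentile between 24 h and 6 h does not measure a change either. The 24 h and 6 h signals printed side by side, and their correlations across members, do not measure a change between the times. The deposited −log10 of the IDR showed every peak at 0.05 or less. The replicate columns carry no sample names.

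Overlaps, summits (the mean of both replicate summits) and shares were computed in Python 3.11.15 with pandas 2.3.3 and scipy 1.17.1. Overlap calls gave the same 4523 members with bedtools, and on simulated data found 600 of 600 planted overlaps with 0 false ones among 60000 peaks. Gene names, positions and starts are from RefSeq (GRCh38.p14): 15812 of 19974 protein-coding genes on the chromosomes analysed had a start used here. Motifs were searched on both strands of 1 window of 300 bases per gene. Members, gene lists and the rule for named genes were chosen with earlier results of these data known. The rule named the strongest gene-start members at 24 h (12), by 6 h partner (8) and in both lists (8), the strongest elsewhere at 24 h (6) and at 6 h (4), the loci with most members, up to 4 genes per list by 24 h signal, a set of hormone, remodeller and signalling genes, and the peaks at each overlap limit. Ties among loci and further list members were named after their values were seen. The alternatives covered the overlap rule, the IDR threshold, the list length, the replicate column, the replicate summits, the peak width and the definition of a gene start.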

Additional observations from a re-analysis of the deposited data

How the results depend on the processing

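No paired analysis was possible because each group has 1 list and a peak missing from a list has no value per sample. The main values were 4523 members, 32.7% at a gene start, 1752 genes with a member at the start, a median 24 h percentile of 79.7 and a median distance of 149 bp between 24 h and 6 h summits. Any overlap of 1 bp, no contact with a vehicle peak, and leaving out peaks over 3000 bp kept all 5 within 1.5 times or within the interval of the main value. With an IDR of at most 0.01 in all lists the values were 1286 members, 38.8%, 603 genes, percentile 84.3 and 176 bp. With lists of equal length they were 851 members, 52.8%, 553 genes, percentile 95.2 and 115 bp. Ranking such lists by 1 replicate column alone gave 591 to 1143 members, 50.9% to 54.1%, 394 to 713 genes, percentiles 95.1 to 96 and 90 to 138 bp. With replicate summits at most 100 bp apart there were 970 members, 36.2%, 408 genes, percentile 90 and 56.5 bp. Requiring 50% of both peaks moved the percentile to 81.5 and the distance to 135 bp. A gene-start distance of 500 bp gave 30.9%. The settings on IDR, length and summits leave fewer peaks to compare. Percentiles are always ranks in the whole 24 h list. Those in lists of equal length were therefore raised by the cut to the strongest peaks itself and are no separate result. Depth is unknown, so the difference in list length between the groups cannot be told apart from a difference in depth.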
